A study of Mus musculus with 2 samples.

Results

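Apoe, Apoc1, Apoc4 and Apoc2 are 4 neighbouring apolipoprotein genes among the 31053 features measured in single microglia, the resident macrophages of the brain. They were taken by symbol. The cluster was chosen by the measured ratios of Apoe, Apoc1 and Apoc4 between the 2 libraries, so those ratios are given as a description. Both libraries came from female C57BL/6 mice aged 3 months. For each genotype, microglia of 3 mice were isolated without enzymes, pooled, sorted by flow cytometry and run on a 10x Genomics droplet platform. One library is labelled WT. The other is titled IRF8KO but carries the genotype entry WT, so it is called the library labelled IRF8KO; its cells are called IRF8KO cells. The labels name no allele, treatment or Cre driver. There was 1 library per group, so no difference has a replicate check, and no test or p-value is given.

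Apolipoproteins coat the particles that carry cholesterol and other lipids between cells. Apoe is the main carrier protein in the brain, is made largely by astrocytes, and is bound by several lipoprotein receptors and by Trem2. Apoc1 and Apoc2 are small exchangeable apolipoproteins: Apoc1 slows the uptake and remodelling of lipoproteins, and Apoc2 is the cofactor of lipoprotein lipase. The role of Apoc4 is less well known. In macrophages the cluster is known as a target of the liver X receptors (LXR), which sense oxidised cholesterol, through enhancers that the genes share. Microglia raise Apoe when they enter the disease-associated (DAM) state.

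All 4 genes lie on the minus strand of mouse chromosome 7 (GRCm38, GENCODE M21) within 27.61 kb. Read in the direction of transcription, Apoe (ENSMUSG00000002985, chr7:19696109-19699188) comes first. Apoc1 (ENSMUSG00000040564, chr7:19689481-19692660) follows after a gap of 3448 bases. Apoc4 (ENSMUSG00000074336, chr7:19678083-19681479) lies another 8001 bases on, and Apoc2 (ENSMUSG00000002992, chr7:19671579-19677941) starts 141 bases after Apoc4. A further protein-coding model, Gm44805, spans Apoc2 and reaches into Apoc4. It shares 646 of the 813 exonic bases of Apoc2 (79.5%) and 265 of the 270 bases of its last exon, and it held 0 UMIs in all 8807 barcodes. How reads in shared exons were counted is not given in the sources used here, so the low count of Apoc2 cannot be read as absence of its RNA.

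RefSeq promoter windows (GRCm38.p6) were matched for 3 of the 4 members. The bases just before the start of Apoe and of Apoc4 are shown because both genes were far higher in IRF8KO cells. Capitals mark motif matches, of which the Apoe stretch has none. The Apoe stretch is chr7:19699189-19699438 and the Apoc4 stretch chr7:19681480-19681710, both read on the minus strand.
Apoe: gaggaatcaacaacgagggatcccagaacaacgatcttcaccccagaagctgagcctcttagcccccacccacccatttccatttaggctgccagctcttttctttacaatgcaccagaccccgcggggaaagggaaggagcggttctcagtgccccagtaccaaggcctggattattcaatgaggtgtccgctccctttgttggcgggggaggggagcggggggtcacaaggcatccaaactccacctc
Apoc4: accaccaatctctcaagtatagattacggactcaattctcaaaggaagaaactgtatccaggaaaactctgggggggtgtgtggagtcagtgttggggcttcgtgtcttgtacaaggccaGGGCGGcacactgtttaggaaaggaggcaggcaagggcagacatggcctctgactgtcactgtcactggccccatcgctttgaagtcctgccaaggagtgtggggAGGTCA
The 250 bases before each RefSeq start, for Apoe the outermost of its 3, were searched on both strands for 10 motifs. Apoc4 held the GC box GGGCGG, present in 32.7% of 32851 windows, and the nuclear receptor half-site AGGTCA, present in 14.0%. Apoc2 also held 1 AGGTCA. None of the 3 matched genes held the other 8 motifs. One was the repeat known to bind LXR with its partner, which is AGGTCA and AGGTCA again after any 4 bases, present in 0.0152% of windows. Others were the PU.1 motif GAGGAAGT (2.44%), the ETS-IRF motif of GGAA, any 2 bases and GAAA (2.30%), and the interferon motif of GAAA, any 2 bases and GAAA (2.98%). The rest were the C/EBP motif TTGCNNAA (9.56%), TATAAA (12.4%), the AP-1 motif TGANTCA (6.75%) and the MAF half-site TGCTGA (16.1%). These letters say nothing of binding.

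Cells were kept with at least 1000 UMIs (molecular tags, each counting 1 captured transcript), 500 or more genes and a mitochondrial share of UMIs up to 10%. That left 3304 of 3504 WT and 5105 of 5303 IRF8KO barcodes. IRF8KO cells were split by the share of their UMIs in 6 neutrophil genes (Camp, Ngp, S100a8, S100a9, Lcn2 and Ltf). Of these cells, 5007 held under 2% and 98 held 2% or more; the latter are called neutrophil-gene cells, and IRF8KO cells without further words are the 5007. The split was wide: the 3 cells nearest under it held 0.110% to 0.232%, with 65 to 400 Apoe UMIs, and the 3 nearest over it 2.36% to 19.5%, with 369 to 3072. Median depth was 3204.5 UMIs in WT, 2933 in IRF8KO and 7057.5 in neutrophil-gene cells, and median mitochondrial shares were 2.09%, 3.70% and 1.05%. Irf8 held 14725 WT UMIs and 12698 IRF8KO UMIs, or 794 and 669 CPM (counts scaled to a total of 1000000); a 3′ tag outside a deleted part checks nothing. All 11 microglia markers had UMIs, summing to 32190 CPM in WT and 15860 CPM in IRF8KO cells. Of these, 6 were lower by 2-fold or more in IRF8KO cells, and 5 stayed within 2-fold. P2ry12 was at 625 CPM in IRF8KO cells against 3701 in WT, while Fcrls was at 1891 against 1792 and Olfml3 at 1268 against 1206. Of 11 markers of border macrophages, which line the brain's surfaces and vessels, 6 reached 10 CPM in a library and all 6 were higher by 2-fold or more in IRF8KO cells. The 11 markers summed to 265 CPM in WT and 3377 CPM in IRF8KO cells, with Pf4 at 9 and 27746 UMIs, Ms4a7 at 0 and 12311, and Mrc1 at 212 and 9550. The defining markers were not of 1 direction: Cd163 (0 and 173 UMIs) and Cbr2 (8 and 116) had more UMIs in IRF8KO cells, while Lyve1 (0 and 2) and Folr2 (32 and 4) were at or near 0 there. The part of border macrophage genes in the member levels was not tested. Barcode sequences shared by both libraries numbered 5, and in the WT library these held 13 Apoe UMIs.

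Apoe was sparse in WT cells and one of the leading transcripts of IRF8KO cells. It held 8865 UMIs in WT cells, 1676346 in IRF8KO cells and 8858 in neutrophil-gene cells. Summed levels were 478 CPM (468 to 488) in WT and 88320.5 CPM (88187 to 88454) in IRF8KO cells, the latter being 8.83% of all UMIs. The neutrophil-gene cells stood between, at 10508 CPM (10291 to 10729.5), but few of them carried this value. The 3 cells with under 20% neutrophil-gene UMIs held 5612 of the 8858 Apoe UMIs, and the other 95 cells were at 4302 CPM. The log2 ratio of IRF8KO over WT was 7.53 (7.50 to 7.56), or 185-fold, and ranked 26th among the 8859 genes that reached 10 CPM in WT or IRF8KO cells. Intervals here and in what follows are exact 95% intervals of counting error, and cells of 1 library are not replicates.

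The small apolipoproteins Apoc1 and Apoc4 were almost undetected in WT. Apoc1 had 13 UMIs in WT (0.701 CPM, 0.373 to 1.20), 69083 in IRF8KO cells (3639.7 CPM, 3613 to 3667) and 341 in neutrophil-gene cells (405 CPM, 363 to 449.8). Its log2 ratio of 12.34 (11.57 to 13.25) was the highest of the 8859 genes. Apoc4 had 7 WT UMIs (0.3775 CPM, 0.152 to 0.778), 7973 in IRF8KO cells (420.1 CPM, 411 to 429) and 48 in neutrophil-gene cells (56.9 CPM, 42.0 to 75.5). Its log2 ratio was 10.12 (9.08 to 11.43), rank 7. Both ratios rest on very few WT UMIs, which sets the width of their intervals.

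Apoc2, the lipoprotein lipase cofactor, had 0 UMIs in WT, 7 in IRF8KO cells (0.369 CPM, 0.148 to 0.760) and 0 in neutrophil-gene cells. No UMI in WT allows up to 0.162 CPM by a floor of 3 counts, within the IRF8KO interval, so a difference was not detectable at this depth. The 3 other members were higher by 2-fold or more, as were 497 of the 8859 genes (5.61%). The choice of members used this contrast, so nothing is read from that count.

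**Figure D1:**
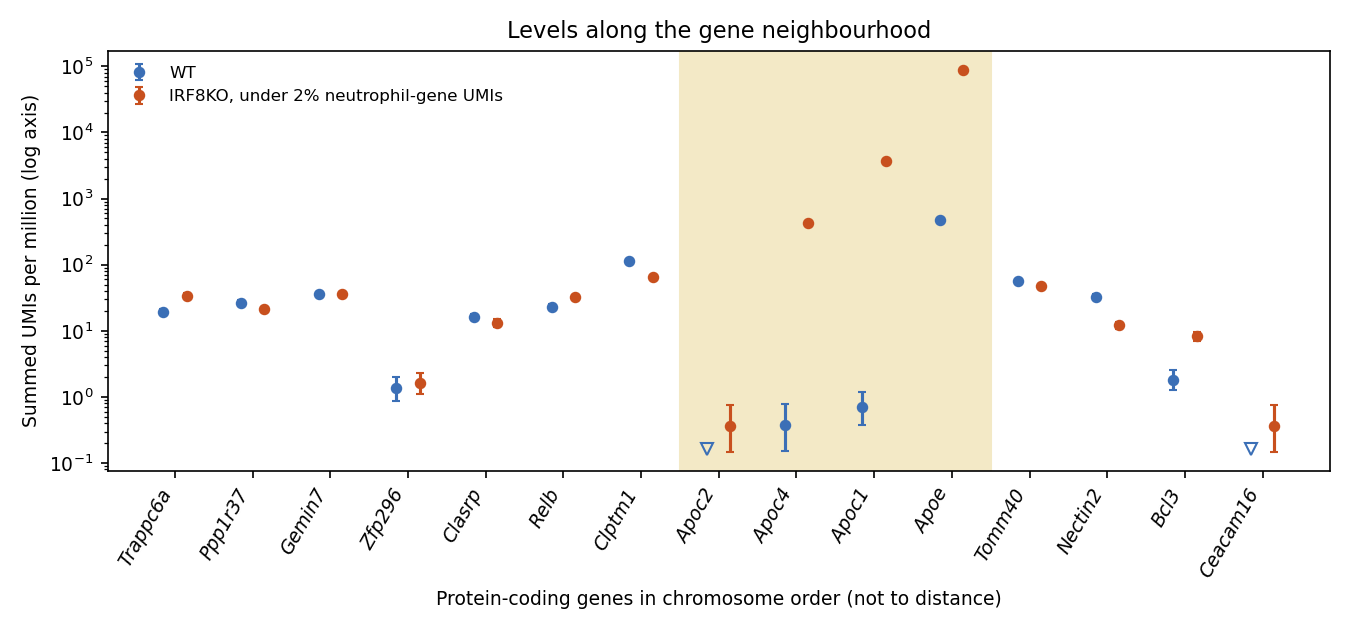
Summed CPM on a log axis for the members (shaded) and those of their 16 nearest protein-coding neighbours that had any UMI, in chromosome order. Blue points are WT cells, orange points IRF8KO cells under 2% neutrophil-gene UMIs, bars exact 95% Poisson intervals, and open triangles the floor of 3 counts for a library at 0. Apoe, Apoc1 and Apoc4 stand apart from their neighbours, none of which, where it reached 10 CPM, was higher by 2-fold.

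The genes on either side did not share the change. All 16 nearest protein-coding genes, 8 on each side over 379.57 kb, were in the table, and 8 of them reached 10 CPM. Their log2 ratios ran from -1.44 to 0.82 with a median of -0.28, equal to the median of -0.28 over all 8859 genes. None was higher by 2-fold and 1 was lower, Nectin2, an adhesion receptor, at 32.8 CPM in WT and 12.1 in IRF8KO cells; 5.61% of all genes were higher and 9.28% lower. Tomm40, a subunit of the mitochondrial import pore and the first gene past Apoe, was at 55.9 and 47.1 CPM (-0.25). Clptm1, the first gene past Apoc2, was at 114 and 64.9 CPM (-0.81). Of the neighbours under 10 CPM, Bcl3, a regulator of NF-kB, had 34 and 158 UMIs, a log2 ratio of 2.18 (1.64 to 2.76); it was singled out after its value was seen.

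To compare single cells at equal depth, each was thinned to 2000 UMIs, which kept 3019 WT, 4509 IRF8KO and 97 neutrophil-gene cells and left out 285, 498 and 1. Apoe was then found in 30.6% of WT cells (28.9 to 32.3) and in 99.9% of IRF8KO cells (99.8 to 99.99). The unthinned shares were 42.6% and 100%. The neutrophil-gene cells, which should lack Apoe, had it in 68.0% (57.8 to 77.1). Apoe shares at or below that level in that library are not read as expression. Of those 97 cells, 12 held 20 to 145 Apoe UMIs and the other 85 held 5 or fewer. Doublets were not called, and whether free RNA or mixed cells gave these UMIs was not tested. The WT library held no such cells to set its background. Its 5 red cell barcodes, among the barcodes left out, held 0 Apoe UMIs in 24711 UMIs, which allows up to 121 CPM.

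The amount per cell separated the groups more fully than detection. The median IRF8KO cell held 172 Apoe UMIs in 2000, or 8.6%, and the 5th to 95th percentiles ran from 84 to 287. In WT the median was 0, the 95th percentile 4 and the 99th percentile 9. The median neutrophil-gene cell held 1, with a 95th percentile of 65. Of 4509 IRF8KO cells, 4472 (99.2%) lay above the second highest WT cell, at 29 UMIs, and the distributions overlapped in few cells.

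**Figure D2:**
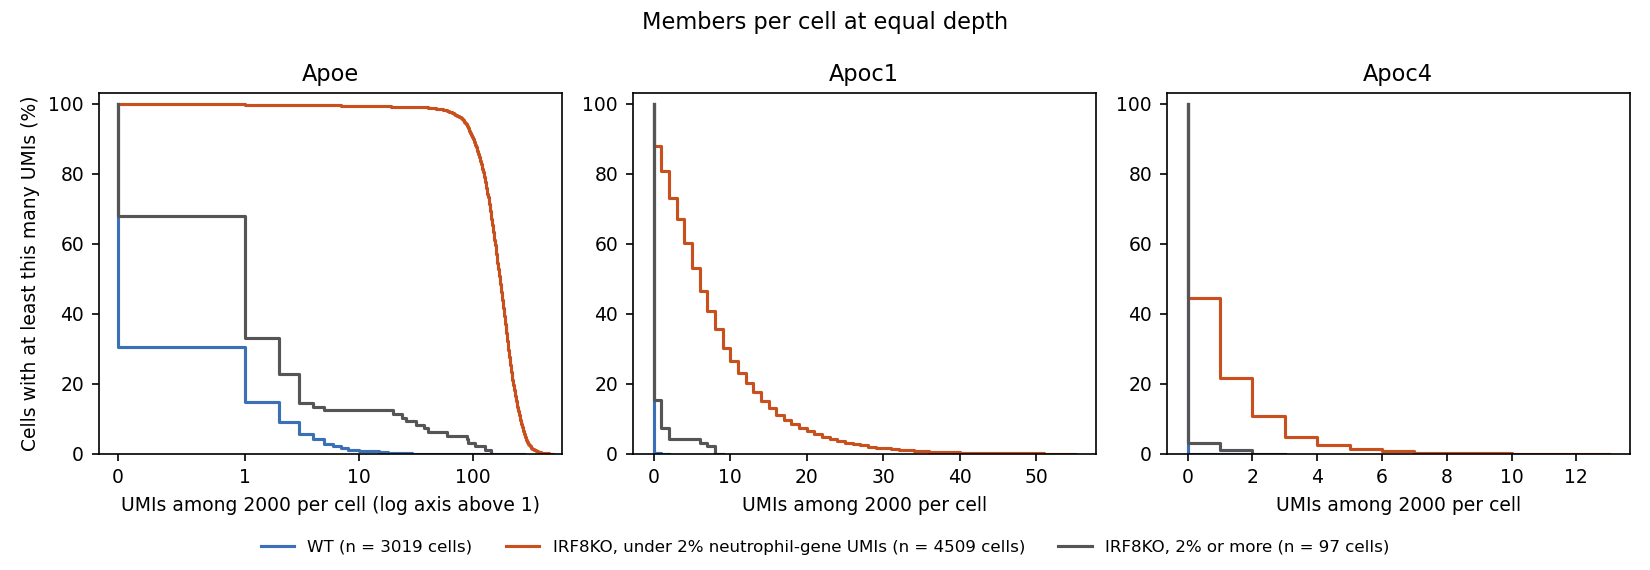
Share of cells (vertical axis, %) with at least the number of UMIs on the horizontal axis, after thinning to 2000 UMIs per cell, for Apoe (log axis above 1), Apoc1 and Apoc4. Blue is WT (3019 cells), orange IRF8KO under 2% neutrophil-gene UMIs (4509) and grey the neutrophil-gene cells (97). The orange Apoe curve stays near 100% until about its 5th percentile of 84 UMIs, while the WT curve starts at 30.6%.

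A single WT cell accounts for the top of the WT range. It held 308 Apoe UMIs of 2174 (14.2%; 277 after thinning), against 29 in the next. It had 0 Apoc1 and 0 Apoc4 UMIs, 7 UMIs of the microglial receptor Csf1r, 33 of the complement gene C1qa, 0 of P2ry12 and 1 UMI over the astrocyte markers. Without it the Apoe log2 ratio was 7.58. Among WT cells Apoe was concentrated: 128 cells with 5 or more thinned UMIs (4.24%) held 50.8% of the Apoe UMIs, the top 10% of cells held 71.0%, and the top 10% of IRF8KO cells held 16.9%. In these 128 cells, the DAM genes without Apoe took 2.12% of UMIs against 1.70% in cells with none, and the microglia markers 2.91% against 3.21%.

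Apoc1 and Apoc4 had no UMI in some IRF8KO cells and were unevenly spread over the rest. At 2000 UMIs, Apoc1 was found in 88.1% (87.1 to 89.0) of IRF8KO cells, in 2 WT cells (0.0662%) and in 15.5% (8.92 to 24.2) of neutrophil-gene cells. Its quartiles in IRF8KO cells were 2, 6 and 11 UMIs and its highest value 54, while 536 cells (11.9%) had none. The top 10% of cells held 31.3% of its UMIs. Its variance was 6.95 times its mean, the highest among 19 genes within 2-fold of that mean; the other 18 had a median of 1.83. Apoc4 was found in 44.6% (43.2 to 46.1) of IRF8KO cells, in 1 WT cell (0.0331%) and in 3.09% (0.642 to 8.77) of neutrophil-gene cells, and its top 10% of IRF8KO cells held 45.7%. Its mean in IRF8KO cells was 0.862 UMIs. Poisson sampling at that mean would leave 42.2% of cells without Apoc4, and 55.4% had none. A cell without a UMI is therefore not read as lacking Apoc4. Apoc2 was found in 6 of 4509 IRF8KO cells (0.133%) and in 0 WT cells, which allows up to 0.0994%; 0 of 97 neutrophil-gene cells allows up to 3.09%. Unthinned shares for Apoc1 were 0.393%, 90.9% and 23.5% in WT, IRF8KO and neutrophil-gene cells, and for Apoc4 0.212%, 54.0% and 7.14%.

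The 13 WT cells with Apoc1 were deep, at a median of 25067 UMIs against 3199 in the rest. Each held 1 Apoc1 UMI, 12 of the 13 also had Apoe, and their summed Apoe level was 1286 CPM against 462 CPM. Depth moves with detection here, and its part was not tested.

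The balance between members restates the same ratios between the libraries by which the cluster was chosen, so it is given as a description only. For every 100 Apoe UMIs, IRF8KO cells held 4.12 Apoc1 UMIs (4.09 to 4.15) and WT cells 0.147 (0.0781 to 0.251). At the IRF8KO ratio the 8865 WT Apoe UMIs would come with 365 Apoc1 UMIs, and 13 were found. Apoc4 stood at 0.476 (0.465 to 0.486) in IRF8KO and 0.0790 (0.0317 to 0.163) in WT cells, or 42.2 UMIs at the IRF8KO ratio against 7 found.

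Within the library labelled IRF8KO, the neutrophil-gene cells held the members in nearly the ratio of the other cells. They had 3.85 Apoc1 (3.45 to 4.28) and 0.542 Apoc4 UMIs (0.400 to 0.718) per 100 Apoe. The 95 cells with 20% or more neutrophil-gene UMIs had 4.16 (3.49 to 4.92) and 0.462 (0.259 to 0.762), at an Apoe level of 4302 CPM. Their intervals all include the IRF8KO values of 4.12 and 0.476 respectively. These ratios rest on few cells too: 12 cells with 20 to 145 thinned Apoe UMIs held 96.5% of the Apoe UMIs and 95.6% of the Apoc1 UMIs, at 44982 CPM of Apoe. The 85 cells with 5 or fewer were at 470.02 CPM of Apoe and held 15 Apoc1 and 0 Apoc4 UMIs. The log2 ratios of neutrophil-gene over IRF8KO cells were -3.07 for Apoe, -3.17 for Apoc1 and -2.88 for Apoc4. Over the 95 cells alone, a limit set after seeing the data, they were -4.36, -4.35 and -4.40. In the contrast of all 98 cells, 44.9% of 8798 genes were lower by 2-fold or more. Neutrophil markers outside the rule summed to 5128 CPM in these cells against 248 CPM in IRF8KO cells, with 9 of 10 detected. Wfdc21 alone made up 4042 of the 5128 CPM. Csf3r went the other way, at 91.3 CPM against 238 CPM in IRF8KO cells. Of the monocyte list, Chil3 alone made up 10935 of 11886 CPM, while Ccr2 was at 8.30 CPM and Vcan at 0 UMIs.

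**Figure D3:**
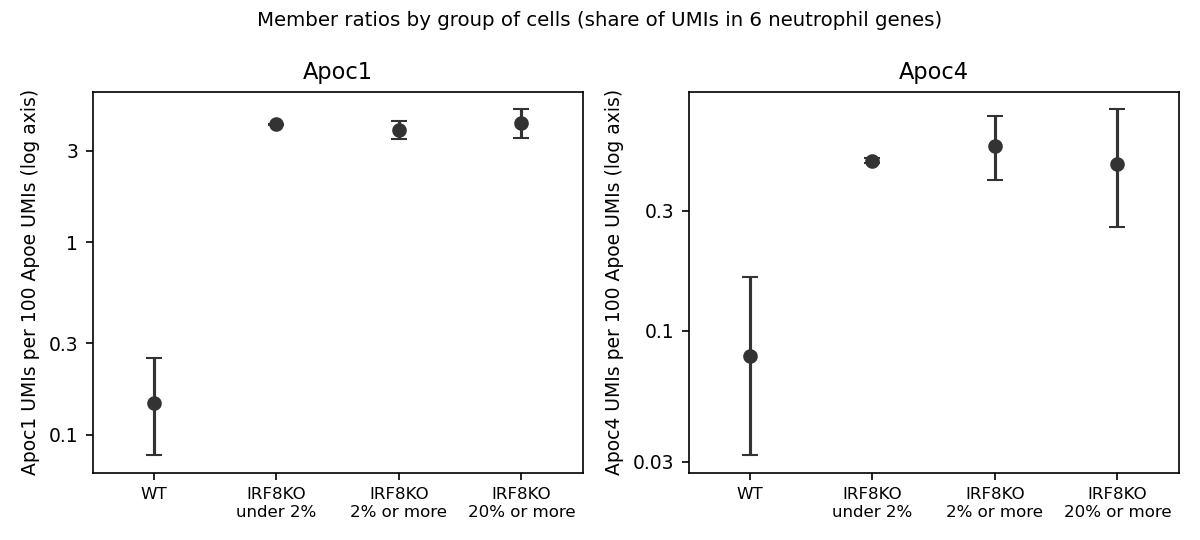
UMIs of Apoc1 and of Apoc4 per 100 Apoe UMIs (log axes) in WT cells and in IRF8KO cells by their share of neutrophil-gene UMIs; points are ratios of summed UMIs and bars exact 95% intervals of counting error. The 3 sets of IRF8KO cells lie near 4.12 for Apoc1 and 0.476 for Apoc4, and the WT cells lie below them at 0.147 and 0.0790. The cells of 20% or more are among those of 2% or more.

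Across the 4509 thinned IRF8KO cells, Apoe varied weakly with Apoc4 and still less with Apoc1. The Spearman correlation was 0.17 for Apoe with Apoc4, -0.01 for Apoe with Apoc1 and 0.05 for Apoc1 with Apoc4. These cells share a library, and thinning gives each the same total. Among 2896 other genes with a UMI in at least 10% of the cells, Apoc4 ranked 1st for Apoe and Apoe ranked 1st for Apoc4, while Apoc1 ranked 1042nd for Apoe. The 1st ranks hold only with the members inside the fixed total: with them taken out, Apoe went with Ctss at 0.21 and Itm2b at 0.19, and Apoc4 with Pla2g7 at 0.18, each above the 0.175 of Apoe with Apoc4 when Apoe was left out of the thinning. The cells were then cut into 4 groups of nearly equal size by Apoe. From the lowest to the highest group, mean Apoc4 went from 0.597 through 0.752 and 1.02 to 1.08 UMIs, and the share of cells with it from 34.7% to 53.2%. Mean Apoc1 over the same 4 groups was 7.24, 8.14, 8.28 and 7.32, with no steady direction. Apoc1 and Apoc4 were both found in 39.1% of cells, where the product of their shares is 39.3%.

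**Figure D4:**
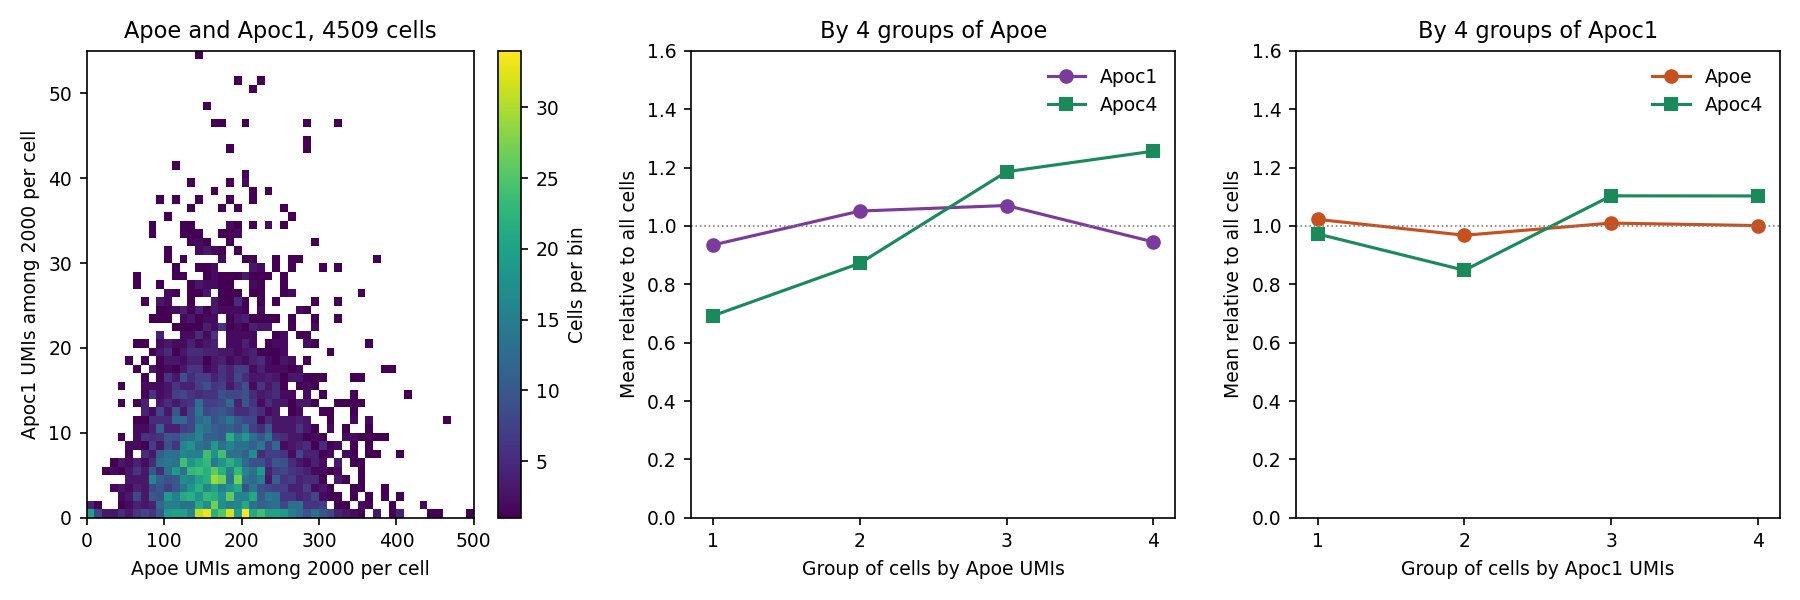
Left, Apoe and Apoc1 UMIs per IRF8KO cell at 2000 UMIs, coloured by the number of cells per bin. Middle and right, the mean of the other members in 4 groups of cells ordered by Apoe and by Apoc1, relative to the mean over all 4509 cells; Apoc4 is higher in groups with more Apoe, from 0.597 to 1.08 UMIs per cell, and Apoc1 shows no steady direction.

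The genes most like each member differed in part between Apoe and Apoc1, with Itm2b and Ctss among the highest of both. After Apoc4, Apoe went highest with Itm2b (0.16), Ctss (0.16), Pla2g7 (0.14), Lyz2 (0.14), Cd63 (0.12), Trf (0.12) and Ctsb (0.12). Ctss and Ctsb are lysosomal proteases, and Cd63 is a lysosomal membrane protein. It went lowest with Tmsb4x (-0.18), Hspa5 (-0.15), Olfml3 (-0.13), Actb (-0.13), Xist (-0.13), Macf1 (-0.12), Rrbp1 (-0.12) and Malat1 (-0.11). With the members taken out of each total, Tmsb4x came to -0.09, Actb to -0.05 and Malat1 to -0.04, so these values shrank once the members no longer took up part of the fixed total. Apoc1 went highest with the protease inhibitor Cst3 (0.34) and the protease Ctsd (0.20), then Crybb1 (0.13), Itm2b (0.12), Ctss (0.12), Cp (0.11) and Sparc (0.11). It went lowest with Runx3, Pf4 and Fxyd5 (-0.11 each), Fth1, Lgals1 and Ms4a7 (-0.10 each), Ifitm2 and Dab2 (-0.09 each). For both members, the middle 98% of genes lay within -0.09 to 0.05. Apart from Cst3 all of these are weak, some rest on sparse counts, and they are not read as a finding. Mean Cst3 was 35.8 UMIs in the lowest of 4 groups of cells by Apoc1 and 54.6 in the highest, while mean Pf4 was 3.15 and 2.46 and mean Ms4a7 1.35 and 0.938.

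Inside IRF8KO cells, the share of MHC class II genes was highest in the group of lowest Apoe, and changed by the largest factor over the 4 groups. That list is sparse, with a 90th percentile of 1 UMI, and its correlation with Apoe across single cells was weak, at -0.05. The correlation was 0.11 for the DAM genes, -0.08 for the microglia markers and -0.06 for interferon response genes. For the border macrophage markers and for early response genes such as Fos it was -0.03 each. Over the 4 groups by Apoe, the DAM genes other than Apoe took 2.46%, 2.64%, 2.78% and 2.84% of UMIs. MHC class II genes, which present antigen, took 0.0429%, 0.0183%, 0.00992% and 0.0109%, and interferon response genes 0.152% to 0.128%. The microglia markers stayed between 1.74% and 1.78% and the border macrophage markers between 0.345% and 0.370%. Cells above the 90th percentile of a list's share were then set against the rest. In the 401 such cells for the DAM genes, mean Apoc1 was 9.96 UMIs against 7.53 in the rest. Apoc4 was 1.19 against 0.830 and Apoe 181 against 176. The DAM share rests mostly on abundant genes: Ctsd (8498), Fth1 (6496) and Tyrobp (3859) led its 24112 CPM in IRF8KO cells. Of its 20 genes, 14 reached 10 CPM in a library, and Spp1 was at 0.474 CPM in IRF8KO cells. Apoc1 went with Ctsd at 0.20 and with Fth1 at -0.10. In the 426 such cells for the microglia markers, Apoe was 153 against 179 and Apoc4 0.526 against 0.897. The 121 such cells for MHC class II held 161 Apoe UMIs against 177 and 6.40 Apoc1 against 7.78.

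A few cells of the library labelled IRF8KO held Apoe at WT amounts. At or below the WT 99th percentile of 9 UMIs were 24 of 4509 cells (0.532%), and 21 more lay between that and the IRF8KO 1st percentile of 40. The 24 cells held 130 Apoe UMIs in all (1481 CPM), 6 of Apoc1 (68.4 CPM) and 0 of Apoc4. Genes that the choice of these cells did not use differed as well. The microglial receptor P2ry12 was at 2301 CPM against 605 in the other 4485 cells and 3699.7 in WT cells. The microglial transcription factor Sall1 was at 319 CPM (28 UMIs in 14 cells) against 1.39, and at 515 in WT. Pf4 was at 68.4 against 1487 CPM and Ms4a7 at 22.8 against 662 CPM, while Irf8 was at 615 against 668 CPM. With members taken out of the totals, MHC class II genes were at 1746 CPM against 289.8, and at 413 in WT. This list is mixed. Over all kept WT and IRF8KO cells, H2-DMa was at 246 and 13.7 CPM and H2-DMb1 at 126 and 51.7. Higher in IRF8KO cells were Cd74 (31.4 and 108 CPM), H2-Aa (1.19 and 34.9), H2-Ab1 (7.66 and 26.1) and H2-Eb1 (1.29 and 26.7). How many of the 24 cells held the list's UMIs was not counted. Whether these 24 cells carry the genotype of the title was not tested.

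Genes of the wider lipid pathway mostly stayed within 2-fold of their WT levels. Each list is given by its genes that reached 10 CPM, called measured here, and by how many of those were higher or lower by 2-fold or more. The counts are read beside 5.61% higher and 9.28% lower over all genes, whose median log2 ratio was -0.28. In every list but the other apolipoproteins, the share of higher genes was above that of all genes, on few genes each. Of 17 other apolipoproteins, 2 were measured at that level and neither passed 2-fold: Apobr (0.59), a receptor for apolipoprotein B particles, and Apool (-0.32), a mitochondrial protein. Clu, the other main lipid carrier of the brain, had 31 and 17 UMIs, so no other lipoprotein-bound member of the list was measured at that level.

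Among 22 receptors, 14 were measured, 5 were higher and 2 lower, with a median of -0.19. The scavenger receptor Msr1 went from 1.02 to 27.1 CPM (4.72). Sdc4 (1.51), Lrp6 (1.36) and Sorl1 (1.31) were higher and Lrp12 (-2.06) and Sort1 (-1.56) lower. Receptors for Apoe itself were close to their WT levels: Lrp1 was at 379 and 357 CPM, and Trem2 at 1826 and 1679 CPM.

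Of 16 LXR targets and lipid export genes, 11 were measured, 1 was higher and 1 lower, with a median of 0.03. The phospholipid transfer protein Pltp went from 10 to 586 UMIs, or 0.539 to 30.9 CPM (5.84), and Lpcat3, which remodels phospholipids, was lower (-1.21). Scd2 (0.51), Tmem135 (-0.51), Mylip (-0.30) and Lpl (0.23) stayed within 2-fold. The cholesterol exporters Abca1 (334 and 358 CPM) and Abcg1 (107 and 109.7 CPM) had log2 ratios of 0.10 and 0.03.

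Of 16 lipases and remodelling genes, 10 were measured, 2 were higher and 1 lower, with a median of -0.32. The lipase Lipg had 0 UMIs in WT and 275 in IRF8KO cells, at least 6.48 higher on the log2 scale at a floor of 3 counts over the group. The lipid droplet protein Plin2 went from 29.3 to 98.4 CPM (1.75), and the cholesterol transporter Npc1 from 207 to 96.0 CPM (-1.11). Lipe (-0.94), Lmf1 (-0.70) and Pla2g15 (-0.41) stayed within 2-fold.

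Of 20 transcription factors linked to the cluster or to LXR action, 16 were measured, 1 was higher and 0 lower, with a median of -0.16. Rxrg, a partner of LXR, went from 11 to 347 UMIs (4.95). Srebf2 (0.57), Cebpb (0.56) and Spi1 (-0.52) stayed within 2-fold. The LXR genes Nr1h2 and Nr1h3 were at 51.9 and 45.5 CPM and at 17 and 21 UMIs.

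**Figure D5:**
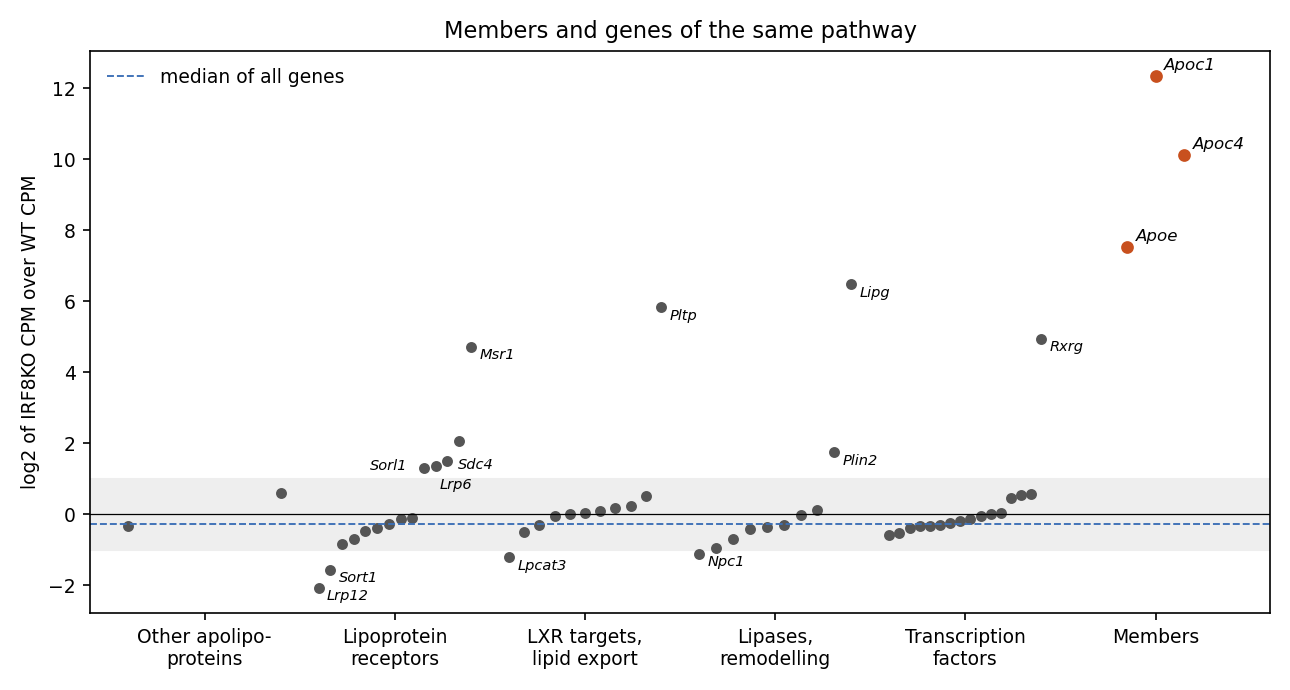
Log2 ratios of IRF8KO over WT CPM for genes that reached 10 CPM, by pathway list, with the members at right (orange); the dashed line is the median of all genes (-0.28), the grey band spans 2-fold either way, and names mark genes past it, with 1 point left unnamed. Lipg is drawn at its lower bound of 6.48. Of the receptors, 7 of 14 lie inside the band, as do most genes of each other list, and the members lie at 7.53, 12.34 and 10.12.

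Markers of other cells known for these apolipoproteins were low. The astrocyte markers summed to 217 CPM in WT and 33.2 CPM in IRF8KO cells, of which Slc1a3 made up 212 and 26.7 CPM, and Aqp4 had 3 and 1 UMIs. Hepatocyte markers summed to 0.431 and 0.316 CPM and choroid plexus markers to 31.3 and 0.474 CPM. The part of such cells in the member levels was not tested. Across 10 groups of IRF8KO cells by depth, Apoe ran from 81993 to 92305 CPM and Apoc4 from 352 to 492 CPM. Apoc1 lay between 3856 and 4232 CPM in the 8 shallower groups and at 3313 and 2993 CPM in the 2 deepest.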

How the data were processed

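Droplet single-cell RNA libraries, 1 WT and 1 labelled IRF8KO, were analysed from the deposited matrices of whole-number UMI counts per gene and barcode. Per the submitters' processing notes, bcl2fastq, Cell Ranger 3.1, Scanpy and the build mm10 were used; the sources used here do not give the alignment settings or the annotation. The labels' protocols also name a full-length low-input kit, which is not a droplet method. Lowest totals of 500 and 501 UMIs show that the deposited barcodes had been selected. Libraries held 18706147 and 19998075 UMIs.

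The members and lists were chosen with earlier results of these data known. Cells were filtered and split as given above; doublets were not called. UMIs were summed per group and scaled to CPM (Python 3.11.15, numpy 2.4.6, scipy 1.17.1, pandas 2.3.3), with exact Poisson intervals for CPM, conditional binomial intervals for ratios and Clopper-Pearson intervals for shares. All cover counting error only. The background was the genes reaching 10 CPM in WT or IRF8KO cells. Cells were thinned to 2000 UMIs (seed 11). TMM scaling used edgeR 4.0.16 in R 4.3.3 as an alternative. The scripts were tested on simulated data. Named by rule were the members, Irf8, up to 6 genes of each list by size of log2 ratio, and for Apoe and Apoc1 the genes with the 8 highest and the 8 lowest correlations; other genes were named after their values were seen. Some genes that the rule names are not reported here.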

Additional observations from a re-analysis of the deposited data

Results flagged for a closer look

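The 198 barcodes of the library labelled IRF8KO that the cell filter left out, with a median of 746 UMIs, carried the members at levels far above the WT left-out barcodes, which serve as control. Apoe stood at 135705 CPM (133984 to 137443) in 197 of them, against 466 CPM (367 to 583) in the 200 left-out WT barcodes. Apoc1 stood at 1996 CPM (1792 to 2217) and Apoc4 at 194.4 CPM (135 to 272), where the WT barcodes had 0 UMIs of each, which allows up to 18.4 CPM. Per 100 Apoe UMIs these barcodes held 1.47 Apoc1 and 0.143 Apoc4 UMIs, against 4.12 and 0.476 in kept cells. They had a median mitochondrial share of 11.5%.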

How the results depend on the processing

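No paired analysis was possible because each group has 1 library, whose replicate number is only a name; no replicate could be left out either. Of 68 alternative values, 42 stayed close to the value reported and 26 moved; the log2 ratios kept their direction. The Apoe log2 ratio of 7.53 was 7.67 with the 4 members left out of the totals, 7.68 when mitochondrial and ribosomal protein genes were left out of them, 7.78 with TMM scaling, 7.64 with equal weight for each cell, 7.65 without the 5% of cells with most UMIs, and 7.58 without the WT cell of highest Apoe, an alternative added after seeing the data. The first 3 scalings moved the median of all genes by 0.14, 0.15 and 0.26. Over the alternatives Apoc1 was 12.26 or more and rose at most from 5192-fold to 8193-fold, without the 5% of cells with most UMIs; Apoc4 ranged from 10.06 to 10.43. Detection follows depth by construction: with 1000 UMIs, 4000 UMIs and no thinning, Apoe was found in 20.6%, 51.8% and 42.6% of WT cells and in 99.8%, 100% and 100% of IRF8KO cells, Apoc1 in 81.2%, 94.6% and 90.9%, and Apoc4 in 28.8%, 63.8% and 54.0%. The median Apoe share was 8.78% at 4000 UMIs. The correlation of Apoe with Apoc1 took both signs, at 0.049 with 4000 UMIs and 0.077 as Pearson's correlation of log2 values, so no direction is read from it. Apoe with Apoc4 was 0.13 at 1000 UMIs, and Apoc1 with Apoc4 was 0.11 at 4000; the cause was not tested. With 1 pool per group, genotype, pool and library cannot be told apart.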
